A study of Mus musculus with 8 samples.

Results

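Glypicans are cell-surface proteoglycans. A folded core protein is tethered to the outer face of the membrane by a glycosylphosphatidylinositol (GPI) anchor and carries heparan sulfate chains, which bind Wnt, Hedgehog, BMP and FGF ligands and so set how much of a signal a cell receives. The mouse has the members Gpc1 to Gpc6, and all 6 were found by symbol among the 32285 genes counted. In the skeleton, loss of human GPC3 causes an overgrowth syndrome and loss of GPC6 causes short limbs, while in the brain Gpc4 and Gpc6 released by astrocytes promote the formation of excitatory synapses and Gpc2, also called cerebroglycan, is known from immature neurons.

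The levels came from single-nucleus RNA sequencing of the petrous temporal bone (PTB), the skull bone that houses the inner ear, and of the paraflocculus and flocculus (PF/F), the cerebellar lobules that lie against it. Mice aged 5.5 postnatal days were wild type (WT) or carried 1 mutant allele of the T-box transcription factor gene Tbx1 (Tbx1+/-), and the WT animals were their littermates. Each tissue and genotype had 2 libraries of nuclei pooled from 5 mice each, and the replicates 1 and 2 were separate experiments with separate animals. The paper describes taking both tissues from the mice, so PTB and PF/F libraries of the same genotype and replicate may share animals. Both sexes were used in the study, on a C57BL/6J background. Unique molecular identifiers (UMIs, one for each captured RNA molecule) were summed over the nuclei of each annotated type in each library and expressed as CPM (UMIs of the gene per 1000000 UMIs of those nuclei). The authors' annotation placed 31076 of 63177 PTB barcodes in 15 skeletal types and 48237 of 57958 PF/F barcodes in 16 cerebellar types, so the PTB values are those of the nuclei annotated as skeletal.

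The annotated nuclei held 33515253 to 43752949 UMIs per PTB library, with a median of 3853 to 4758 per nucleus, and 37700625 to 52902902 per PF/F library, with a median of 2610 to 3503. Among the 28 pairs of libraries, at most 94 barcodes were shared, and no pair shared more than 0.652% of its smaller library. Tbx1 itself was at 38.9 and 39.4 CPM in the WT PTB libraries and at 26.3 and 35.7 CPM in the Tbx1+/- ones, and at 0.0949 to 0.265 CPM in the PF/F libraries. The part of the gene missing from the allele was not known here, so these values do not test the genotype. The RNA of Xist, which is made by female cells, lay between 520 and 1227 CPM across PTB libraries and between 550 and 1529 CPM across PF/F libraries.

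The family falls into a group of short genes and a group of very long ones, which matters for nuclear RNA because intronic reads were counted. Gpc2 (ENSMUSG00000029510) spans 6.35 kb of chromosome 5 (chr5:138273655-138280005, minus strand, mm10/GRCm38) and Gpc1 (ENSMUSG00000034220) spans 29.1 kb of chromosome 1 (chr1:92831645-92860779, plus strand). Gpc4 (ENSMUSG00000031119, 112 kb, chrX:52053021-52165252) and Gpc3 (ENSMUSG00000055653, 342 kb, chrX:52272426-52613950) lie on the minus strand of the X chromosome with 107 kb between them. Gpc5 (ENSMUSG00000022112, 1433 kb, chr14:115092215-116525179) and Gpc6 (ENSMUSG00000058571, 1051 kb, chr14:116925315-117976544) follow each other on the plus strand of chromosome 14, 400.1 kb apart. The longest coding transcripts have 8 to 10 exons, and exons make up 40.7% of Gpc2 and 14.3% of Gpc1 but only 0.245% of Gpc5 and 0.348% of Gpc6. No counted gene overlapped a glypican on the same strand, while Gpc1, Gpc3 and Gpc5 overlapped 3, 2 and 2 counted genes on the opposite strand.

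The upstream regions of 3 members are shown, chosen for how far apart the levels of their genes lay: Gpc2 was the member with the higher level in cerebellum, Gpc3 had the widest gap in favour of bone, and Gpc5 had the widest range between the types of bone. The sequences are RefSeq promoter entries (GRCm38.p6), cut to the bases before the annotated gene start and printed in the direction of transcription, with each GC box (GGGCGG, searched on both strands) in capitals. They are Gpc2 (chr5:138280006-138280187), Gpc3 (chrX:52613975-52614224) and Gpc5 (chr14:115091965-115092214).
Gpc2: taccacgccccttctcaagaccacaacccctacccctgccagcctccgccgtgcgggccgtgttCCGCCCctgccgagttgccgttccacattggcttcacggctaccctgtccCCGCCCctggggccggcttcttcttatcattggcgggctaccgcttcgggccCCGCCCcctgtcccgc
Gpc3: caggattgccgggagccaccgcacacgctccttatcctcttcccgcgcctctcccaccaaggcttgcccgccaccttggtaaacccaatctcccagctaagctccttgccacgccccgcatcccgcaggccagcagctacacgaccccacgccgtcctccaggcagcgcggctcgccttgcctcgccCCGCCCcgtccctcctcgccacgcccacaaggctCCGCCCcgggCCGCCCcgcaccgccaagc
Gpc5: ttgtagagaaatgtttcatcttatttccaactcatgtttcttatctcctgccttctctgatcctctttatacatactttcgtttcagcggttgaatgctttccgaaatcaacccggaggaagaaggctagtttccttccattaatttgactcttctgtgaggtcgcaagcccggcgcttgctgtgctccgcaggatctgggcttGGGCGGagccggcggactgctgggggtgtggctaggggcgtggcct

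The Gpc2 and Gpc3 regions were rich in G and C, at 69.2% and 71.6%, against medians of 51.1% and 52.4% over all promoters of the same lengths. They held 16 CpG dinucleotides in 182 bases and 25 in 250 bases, and 3 GC boxes each. The Gpc5 region had 51.2% G and C, 12 CpG dinucleotides in 250 bases and 1 GC box. A GC box was found in 32.7% of the 32851 mouse promoters over 250 bases and in 21.4% over 182 bases, so its presence is a description of these letters and not a mapped binding site.

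Bone held more glypican RNA than cerebellum for 5 of the 6 genes, and Gpc2 was the exception. The PTB and PF/F libraries did not overlap for any member. All 6 differences passed the test, the edgeR quasi-likelihood test on summed counts with a Benjamini-Hochberg adjusted p under 0.05 and a change above 1.5-fold, 5 higher in PTB and 1 higher in PF/F. These are very different tissues, and 60.5% of the 21176 genes tested were called, 28.0% higher in PTB and 32.4% higher in PF/F. By edgeR, 78.1% of them had an unadjusted p under 0.05. The share of all genes whose libraries do not overlap is not given, so that lack of overlap is a description only.

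Gpc6, whose loss in people shortens the limbs, was the most abundant glypican transcript in either tissue. It was at 1734, 2060, 2008 and 2002 CPM in the PTB libraries and at 536, 651, 571 and 670 CPM in the PF/F libraries, in the order WT replicates 1 and 2 and then Tbx1+/- replicates 1 and 2, which is kept from here on. The lowest bone library stood well above the highest cerebellar one, a 3.17-fold difference (log2 1.66 ± 0.12 SE, adjusted p = 1.72e-06, edgeR, n = 4 libraries per tissue).

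Gpc3, a brake on growth and Hedgehog signalling, had the widest gap. Its levels were 234, 187, 218 and 176 CPM in PTB and 34.8, 38.8, 38.2 and 36.1 CPM in PF/F. Bone was 5.44-fold higher (log2 2.44 ± 0.12, adjusted p = 7.33e-08, edgeR). Its X-linked neighbour Gpc4 differed less, at 88.4, 87.3, 93.9 and 88.2 CPM in PTB and 38.0, 44.3, 43.6 and 37.4 CPM in PF/F, which is 2.17-fold (log2 1.12 ± 0.08, adjusted p = 1.63e-06, edgeR).

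Gpc1, a binding partner of FGF ligands, was at 81.8, 49.6, 74.8 and 57.4 CPM in PTB and at 17.6, 19.7, 19.1 and 18.8 CPM in PF/F, a 3.48-fold difference (log2 1.80 ± 0.16, adjusted p = 7.44e-06, edgeR). The bone libraries of replicate 1 were the high ones in both genotypes. Gpc5, of the same subfamily as Gpc3, was at 83.0, 83.2, 82.9 and 82.0 CPM in PTB and at 48.8, 49.9, 39.6 and 67.4 CPM in PF/F. It had the smallest difference of the family, 1.59-fold (log2 0.67 ± 0.16, adjusted p = 0.00336, edgeR), and without the Tbx1+/- PF/F replicate 1 it was at log2 0.54 and no longer passed the 1.5-fold threshold.

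Gpc2 ran the other way. The PTB libraries were at 8.55, 9.79, 7.79 and 8.26 CPM and the PF/F libraries at 22.2, 26.2, 21.6 and 24.3 CPM, so the lowest cerebellar library was above the highest bone library. Cerebellum was 2.79-fold higher (log2 −1.48 ± 0.10 for PTB minus PF/F, adjusted p = 1.04e-06, edgeR).

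**Figure D1:**
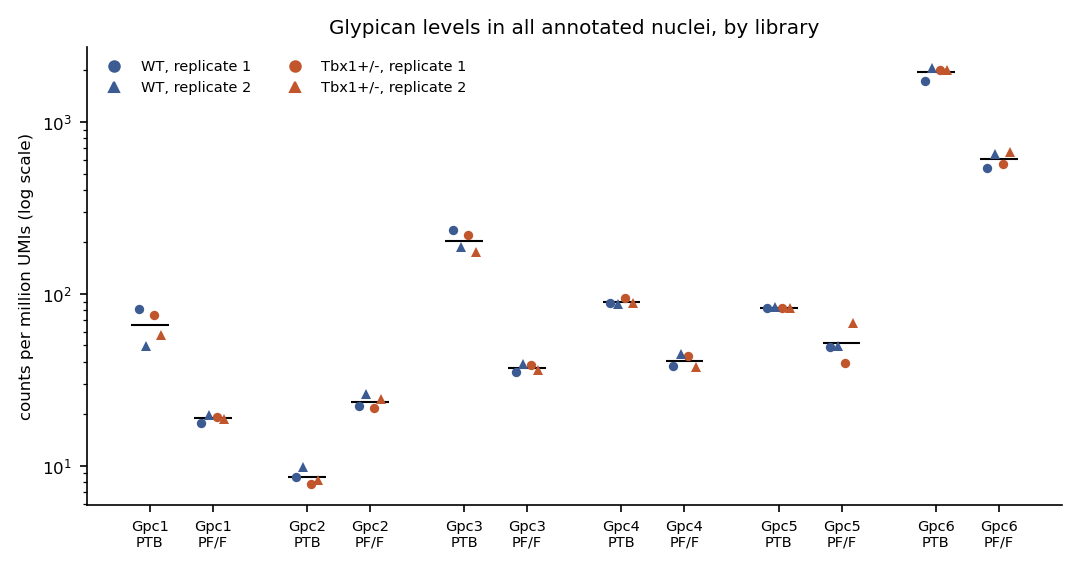
Level of each glypican in all annotated nuclei of each library, in CPM on a log axis; points are libraries (colour: genotype, shape: replicate) and bars are means of 4 libraries per tissue. Gpc6 lies at 1734 to 2060 in PTB and 536 to 670 in PF/F, and Gpc2 is the member whose PF/F libraries lie above its PTB libraries.

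Levels of different genes were compared per kb of gene, introns included, since a longer gene gives more intronic reads. On that scale Gpc1 led in PTB with 2.26 CPM per kb, followed by Gpc6 with 1.86 and Gpc2 with 1.35, while Gpc4 had 0.797, Gpc3 0.596 and Gpc5 0.0578 CPM per kb. In PF/F the short gene Gpc2 led with 3.71 CPM per kb, ahead of Gpc1 with 0.645, Gpc6 with 0.577, Gpc4 with 0.364, Gpc3 with 0.108 and Gpc5 with 0.0359 CPM per kb. Gpc6 was therefore first by raw level and not by level per kb.

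The remaining heparan sulfate machinery, from lists of genes for chain carriers, chain synthesis and chain editing, was compared between the tissues in the same fit, in which 28.0% of all genes tested were higher in PTB and 32.4% in PF/F. Of the 10 other core proteins, 7 were higher in PTB and 1 in PF/F, with a median log2 difference of 2.49 against −0.06 over all genes tested and 1.39 over the glypicans. Perlecan (Hspg2, a basement-membrane and cartilage core protein) had log2 4.25 ± 0.13, syndecan-4 (Sdc4) 3.58 ± 0.16 and syndecan-2 (Sdc2) 3.21 ± 0.10, all transmembrane or matrix carriers of heparan sulfate. Collagen XVIII (Col18a1) was the member higher in PF/F, at −0.84 ± 0.14, while Sdc3 (−0.17 ± 0.15) and agrin (Agrn, 0.23 ± 0.13) did not pass the test.

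Of the 11 enzymes that start and lengthen the chains, 5 were higher in PTB, 1 in PF/F and 5 did not pass, with a median of 0.49, so 6 of 11 were called beside 60.5% of all genes. Extl1 (3.29 ± 0.20), the polymerase subunit Ext1 (1.05 ± 0.11) and the linkage galactosyltransferase B4galt7 (0.75 ± 0.09) led towards bone. B3galt6, which adds the next galactose of the linkage, was higher in PF/F (−0.99 ± 0.15), and Xylt2 (−0.22 ± 0.09) and Extl2 (0.02 ± 0.12) did not pass. Ext1 stood out in 1 bone type: it was at 6152 ± 293 CPM in osteoclasts (SD, n = 4), against 455 to 1049 CPM in the other bone types.

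Of the 16 enzymes that sulfate and epimerise the chains, 5 were higher in PTB, 7 were higher in PF/F and 4 did not pass, with a median of −0.36, which is near the shares over all genes. On the bone side were the 3-O-sulfotransferases Hs3st6 (5.18 ± 0.49), Hs3st3b1 (2.14 ± 0.19) and Hs3st3a1 (1.75 ± 0.17), and on the cerebellar side the N-deacetylase/N-sulfotransferases Ndst3 (−6.07 ± 0.22) and Ndst4 (−5.02 ± 0.14) and the 6-O-sulfotransferase Hs6st3 (−4.97 ± 0.24). The enzymes that trim, cleave or release glypicans were almost all higher in PTB, 9 of 10 with a median of 1.62. Among them were Notum (4.32 ± 0.27), best known as an extracellular Wnt deacylase, the 6-O-endosulfatase Sulf1 (3.40 ± 0.11) and the convertase Pcsk6 (2.84 ± 0.09). The lowest of that list were Furin (1.14 ± 0.07), which processes glypican cores, and the GPI-cleaving Gdpd5 (0.68 ± 0.09), both called, and Gdpd2 (−0.40 ± 0.24), which was not.

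Known partners of glypicans at synapses and in migrating neurons were mostly higher in PF/F, 5 of 8 with 1 higher in PTB and a median of −2.12. The largest differences were those of the Gpc4 receptor Gpr158 (−6.67 ± 0.14), the pentraxin Nptx1 (−4.47 ± 0.21), and the AMPA receptor subunit Gria1 (−3.99 ± 0.25). Receptor-type phosphatase Ptprd was higher in PTB (0.85 ± 0.13), and Ptprs (−0.43 ± 0.09) and Adgrl1 (−0.46 ± 0.07) stayed under the 1.5-fold threshold. The lists were drawn up with earlier results of these data known, so their counts are descriptions. Of the sex-linked genes 1 of 5 was called, Ddx3y, higher in PTB (0.83 ± 0.22); the others ran from Uty (0.26 ± 0.16) and Kdm5d (−0.24 ± 0.15) to Xist (−0.31 ± 0.36) and Eif2s3y (−0.38 ± 0.21).

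Within bone, each glypican had its own distribution over the 15 annotated types, which the authors named as 6 chondrocyte progenitor groups (CP1 to CP6), 4 connective tissue groups (CT1 to CT4), matured chondrocytes, a hypertrophic chondrocyte/osteoblast group, osteoblasts, matured osteoblasts/osteocytes and osteoclasts. The types were made by clustering on expression, so differences between them are described with the spread over the 4 libraries and carry no test. The defining marker Acp5 was in place for osteoclasts (1356 CPM, against 170 to 308 CPM in the other bone types). Matured chondrocytes held Col2a1 at 3664 CPM. The paper reports this gene in every chondrocyte group and in most osteoblast groups, so it does not single them out. The progenitor group CP6 also held 1625 CPM of the neuronal Syt1 and CP3 held 1455 CPM of the glial transporter gene Slc1a3, so these names are used only as the annotation gives them.

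CT2, a connective tissue group of 1098 nuclei, stood at the top for both Gpc6 and Gpc3. Gpc6 in CT2 was at 3482, 4103, 4221 and 4014 CPM, a mean of 3955 ± 327 (SD, n = 4). It was the top type in all 4 libraries, 1402 ± 142 CPM above the next type, the hypertrophic chondrocyte/osteoblast group at 2553 ± 190. Osteoblasts followed at 2394 ± 198, matured chondrocytes at 2117 ± 399 and CT1 at 2033 ± 158 CPM, and matured chondrocytes did not differ from either of these neighbours beyond the spread. Gpc6 was lowest in CT4, at 811 ± 70.2 CPM, and in osteoclasts, cells of the blood lineage that resorb bone, at 470 ± 23.5 CPM. From the top to the lowest type the fall was 8.41-fold, and 7 of the 14 steps between neighbours in the order were larger than their spread.

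Gpc3 in CT2 was at 842, 526, 692 and 696 CPM (689 ± 129), and CT1, the Vcan-rich group, was at 509, 557, 540 and 548 CPM (539 ± 21.2). These groups overlapped, because the WT replicate 2 of CT2 was below all but 1 of the CT1 libraries. CP4 (386 ± 63.1), CP2 (372 ± 8.23) and CT3 (343 ± 49.0) came next without differing among themselves, 152 ± 69.4 CPM below CT1. The mineralising types had little Gpc3, with 85.5 ± 15.9 CPM in the hypertrophic group, 81.4 ± 14.7 in osteoblasts and 67.9 ± 21.8 in matured osteoblasts/osteocytes, and osteoclasts had 57.0 ± 13.3. CT1, CT2, CP2 and CP4 together carried most of the gene's bone UMIs, as their shares of 17.6%, 11.6%, 19.6% and 12.1% show beside 6.88%, 3.51%, 10.8% and 6.37% of all UMIs.

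CT2 also carried the arachnoid and meningeal marker Slc6a13 at 372.6 CPM, against 0.84 to 11.8 CPM in the other bone types, and the endothelial junction gene Cdh5 at 126 CPM. Dcn, a marker shared by meninges and connective tissue, was at 774 CPM in CT2, and Foxc1 at 89.4 CPM. Whether meningeal or vascular nuclei have a part in the high Gpc6 and Gpc3 of CT2 was not tested.

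Gpc4 was highest in CT3 and the bone-forming types. CT3 (134 ± 15.1 CPM), matured osteoblasts/osteocytes (123 ± 13.2), osteoblasts (119 ± 3.20) and the hypertrophic chondrocyte/osteoblast group (119 ± 8.13) could not be ranked against one another. CT1, at 105 ± 6.07 CPM, was the first type to fall beyond the spread, 14.1 ± 6.53 below the hypertrophic group. CT2, the top type for Gpc3 and Gpc6, had 62.5 ± 6.38 CPM, and osteoclasts were again the lowest with 28.6 ± 3.27. Gpc3 and Gpc4 share a locus, but across the 15 bone types their log2 levels correlated only weakly (Pearson's r = 0.241, a description over types that share libraries).

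Gpc1 was highest in matured chondrocytes (105 ± 9.66 CPM), CT4 (99.4 ± 19.1), osteoblasts (98.0 ± 23.3) and the hypertrophic group (92.2 ± 19.2). These 4 did not differ beyond their spread, and matured chondrocytes were the top type in 2 of 4 libraries. CP1 (72.2 ± 19.9) was 20.0 ± 8.78 CPM lower than the hypertrophic group, and CP5 (31.4 ± 15.1) and osteoclasts (30.8 ± 12.3) were lowest. Osteoblasts alone held 30.0% of the Gpc1 UMIs of bone, with 20.6% of all UMIs.

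Gpc5 led in the chondrocyte progenitor groups CP4 and CP5 within bone, and not in the other progenitor groups. CP4 stood at 317, 325, 378 and 410 CPM (358 ± 44.0) and CP5 at 238, 335, 327 and 328 CPM (307 ± 46.3), which overlap. CT2 had 225 ± 43.0 CPM, and below it came a gap of 125 ± 47.1 CPM to CP6 (100.4 ± 6.23). Osteoblasts had 31.7 ± 4.48, the hypertrophic group 22.2 ± 3.72, CT3 18.1 ± 6.89 and CT4 8.01 ± 1.20 CPM. The 44.6-fold range between CP4 and CT4 was the widest of any glypican in bone, and CP4 and CP5 held 27.3% and 16.4% of its UMIs.

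Gpc2 was low everywhere in bone and peaked in CT4 (20.9 ± 5.26 CPM) and CP5 (18.1 ± 1.52). CP5 exceeded CP4 (11.6 ± 1.73) by 6.51 ± 1.66 CPM. Osteoblasts (5.24 ± 1.25) and osteoclasts (3.09 ± 0.885) were at the bottom. These levels rest on few molecules, 79 UMIs in CT4 and 32 in osteoclasts over the 4 libraries, and for every glypican except Gpc5 the osteoclast was the lowest bone type.

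**Figure D2:**
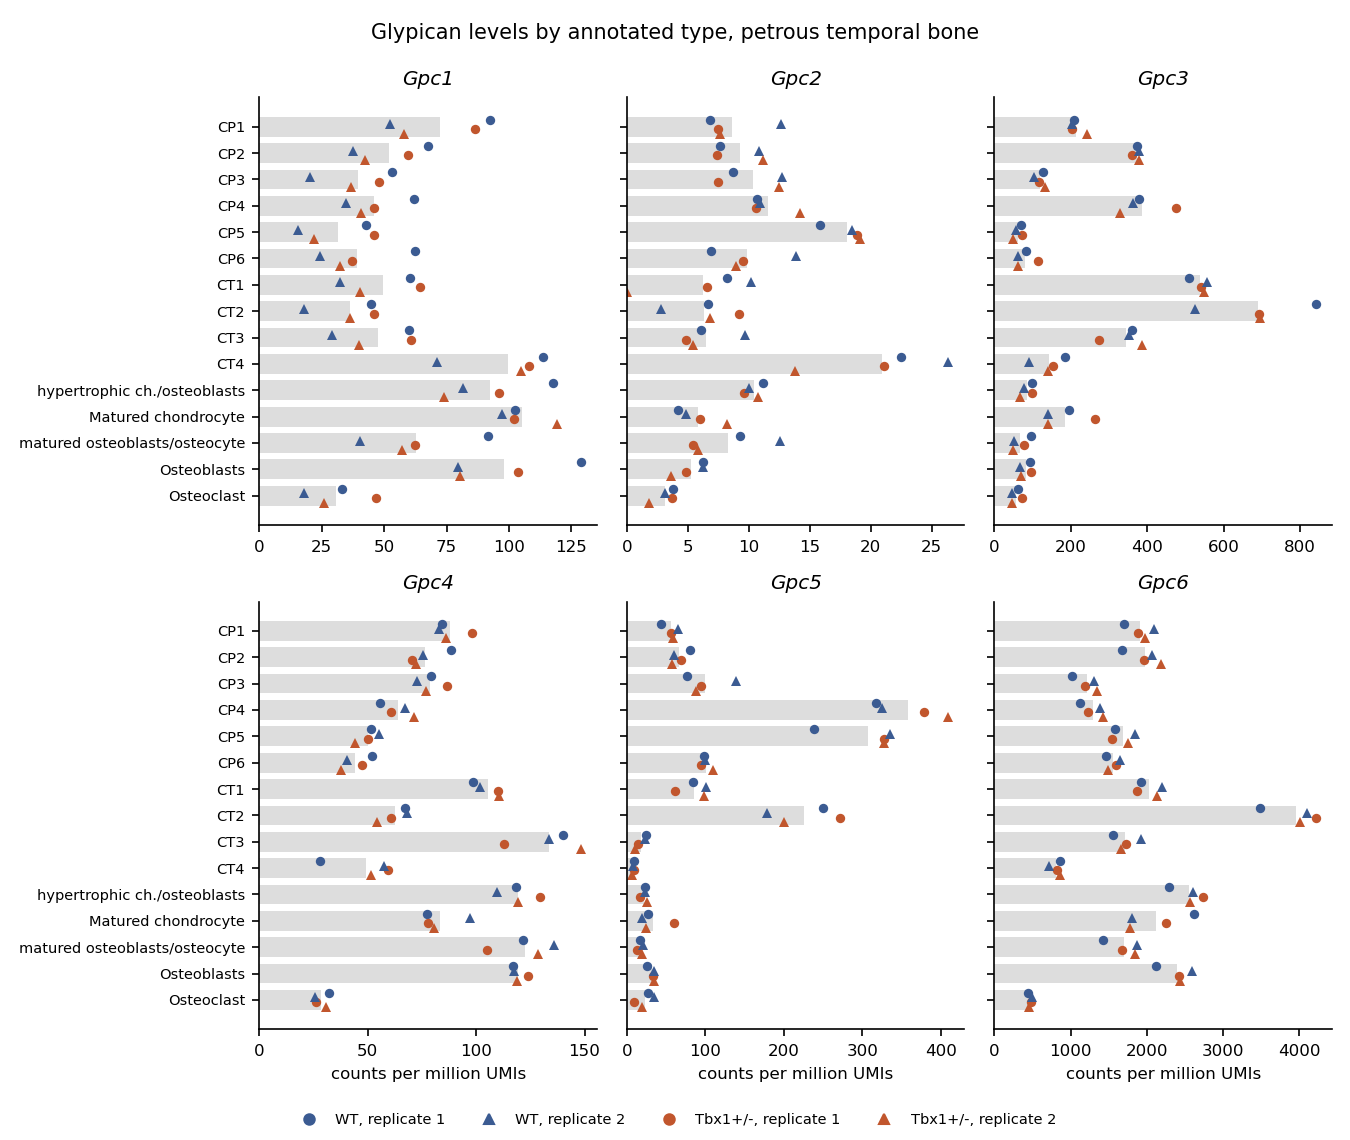
CPM of each glypican in the 15 annotated bone types; grey bars are means of 4 libraries and points are libraries (colour: genotype, shape: replicate). CT2 leads for Gpc3 and Gpc6, CP4 and CP5 for Gpc5, and osteoclasts are lowest for every gene but Gpc5.

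Along the bone lineages the glypicans differed in order. Matured chondrocytes had 1.81 to 2.68 times as much Gpc3 as the hypertrophic chondrocyte/osteoblast group within each of the 4 libraries. The hypertrophic group in turn had 1.13 to 1.66 times as much Gpc4 in 4 of 4 libraries. For Gpc2 no ratio is given, because matured chondrocytes held 1 to 7 UMIs of it per library. Osteoblasts had more Gpc1 (1.40 to 1.98 times), Gpc5 (1.49 to 2.66 times) and Gpc6 (1.32 to 1.49 times) than matured osteoblasts/osteocytes in every library, and less Gpc2, although the mature group held only 7 to 11 Gpc2 UMIs per library. For Gpc3 and Gpc4 that last comparison changed direction between libraries.

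In the cerebellum the same genes were found in other cells. Among the 16 annotated types are granule neuron progenitors (GNP), differentiated granule neurons, GABA interneuron progenitors, differentiated GABA interneurons, a separate GABA.interneuron type, Purkinje cells, an early rhombic lip type, a type called Progenitors, astroglia, oligodendrocytes, meningeal cells, pericytes, endothelial cells and immune cells. Meningeal nuclei carried Slc6a13 at 696.5 CPM and pericytes Rgs5 at 684.9 CPM. The type annotated as oligodendrocytes carried Pdgfra, a marker used here for the oligodendrocyte lineage, at 484 CPM, and is given by the annotation's name. The type called Progenitors went against its name: it held neuronal Syt1 at 1498 CPM, Snap25 at 375.5 CPM and Map2 at 807.5 CPM. It is given below by the annotation's name only. The GABA.interneuron type held Gad2 at 297 CPM and Gad1 at 115 CPM. It held 10.6 CPM of Pax2, the marker of immature interneurons, against 571 CPM of Pax2 in differentiated GABA interneurons. The latter type is called differentiated only because the annotation does so.

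Meninges led for 2 glypicans, Gpc6 and Gpc3, as CT2 did in bone. Gpc6 in the 706 meningeal nuclei was at 2456, 3037, 2654 and 2969 CPM (2779 ± 272), the top type in all 4 libraries. The GABA.interneuron type followed at 2327, 2630, 2471 and 2723 CPM (2538 ± 175), 242 ± 120 CPM lower, and then Progenitors at 1993 ± 313. Differentiated granule neurons, the most numerous type, had 133 ± 6.20 CPM, and 7 of the 15 steps in the order of the 16 types were larger than their spread.

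The contrast between neurons for Gpc6 was seen in single nuclei as well. After each nucleus was thinned to 2000 UMIs, 96.7% of GABA.interneuron nuclei had at least 1 Gpc6 UMI, against 14.0% of differentiated granule neurons. Without thinning the shares were 100% and 18.2%, at median depths of 7027.5 and 2973 UMIs. Thinning left out 0.0% of the first and 14.4% of the second. In bone the thinned shares were 96.6% of CT2 and 36.1% of osteoclasts, and 99.0% and 58.2% unthinned. The counts were not corrected for free RNA. Endothelial nuclei had a thinned share of 17.1% ± 7.24 (24.1% unthinned) and immune nuclei one of 18.3% ± 5.32 (19.4% unthinned), so the share in granule neurons is not read as expression.

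Gpc3 was highest in meninges (238, 366, 242 and 368 CPM; 304 ± 73.5) and in pericytes (259 ± 87.4), which overlapped. The pericyte value rests on 54 UMIs from 74 nuclei, 12 to 25 per library. GNPs, the dividing cells of the outer cerebellar layer, came next at 86.7 ± 6.89 CPM, then astroglia at 60.0 ± 8.03 and GABA interneuron progenitors at 57.3 ± 8.66. Purkinje cells had 33.2 ± 9.75 CPM. Gpc3 was low in the types annotated as differentiated GABA interneurons (7.70 ± 2.91 CPM) and differentiated granule neurons (7.36 ± 1.34), and in the GABA.interneuron type (2.99 ± 2.12). Thinned to 2000 UMIs, 39.7% of meningeal nuclei and 0.596% of GABA.interneuron nuclei had a Gpc3 UMI (52.1% and 2.29% unthinned).

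Gpc4 led in GNPs in the cerebellum. It stood at 117, 146, 114 and 134 CPM there (128 ± 15.0), above the next type, astroglia (59.0 ± 8.60), by 68.7 ± 9.84 CPM, and GNPs were the top type in all 4 libraries. They held 48.2% of the tissue's Gpc4 UMIs with 15.4% of all its UMIs. Astroglia, GABA interneuron progenitors (54.6 ± 10.2) and the early rhombic lip type (47.5 ± 7.04) followed, without a step between neighbours that exceeded its spread. Differentiated granule neurons had 17.4 ± 1.52 CPM and Purkinje cells 3.77 ± 1.37. Meninges, the leading type for Gpc3 and Gpc6, had 36.9 ± 10.9 CPM of Gpc4. Over the 16 types the X-linked pair had r = 0.584.

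Gpc5 was at its highest levels in the type called Progenitors, 2 GABA interneuron types and oligodendrocytes. Progenitors had 309, 506, 357 and 568 CPM (435 ± 122) and were the top type in all 4 libraries, but the type is small, with 20 to 72 nuclei per library. Its median depth was 6704 to 10267 UMIs per nucleus, so leaving out the 8% of nuclei with the most UMIs left 2 to 24 nuclei per library and 199 ± 158 CPM, with 1 library at 0, and the type was then second in the order. Differentiated GABA interneurons had 182, 244, 192 and 256 CPM (219 ± 36.7), oligodendrocytes 184 ± 27.3 and the GABA.interneuron type 147 ± 36.6 CPM, and these 3 did not differ beyond their spread. Astroglia had 81.1, 60.5, 47.7 and 110.5 CPM (75.0 ± 27.4) but, as a larger type, held 22.6% of the tissue's Gpc5 UMIs, second to differentiated GABA interneurons with 37.0%. GNPs (6.70 ± 1.56) and GABA interneuron progenitors (6.48 ± 1.70) were near the bottom, and no Gpc5 UMI was counted in pericytes, which allows up to 86.1 CPM in the smallest library (3 counts, counting error only).

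Gpc2 was found in the interneuron and granule types, both those annotated as progenitors and those annotated as differentiated. Differentiated GABA interneurons had 33.1, 40.0, 31.6 and 34.3 CPM (34.7 ± 3.66), GABA interneuron progenitors 31.7 ± 7.08, GNPs 31.1 ± 4.95 and differentiated granule neurons 25.2 ± 1.52. None of the 15 steps in its order exceeded the spread between libraries. The low end was held by Purkinje cells (7.06 ± 2.39), pericytes (7.17 ± 14.3, from 1 UMI), the type called Progenitors (7.92 ± 2.63) and the early rhombic lip type (10.3 ± 6.82). Astroglia had 16.1 ± 2.32 CPM and oligodendrocytes 12.7 ± 2.00. Endothelial nuclei had 17.9 ± 3.66 CPM and immune nuclei 14.5 ± 12.5, on 1 to 4 and 1 to 11 UMIs per library. Free RNA was not removed, and its part in the Gpc2 of the neuronal types was not tested.

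Gpc1 was low in the cerebellum, with type means from 4.97 to 41.9 CPM. GNPs had 31.9, 31.2, 29.6 and 30.6 CPM (30.8 ± 0.959) and Purkinje cells 27.9 ± 3.53. Progenitors (41.9 ± 23.4) and the GABA.interneuron type (30.9 ± 16.1) had wide spreads and were not distinct from them. The Progenitors level rose by more than 1 SD without the 8% of nuclei with the most UMIs. Differentiated granule neurons were lower, at 13.6 ± 0.922 CPM.

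**Figure D3:**
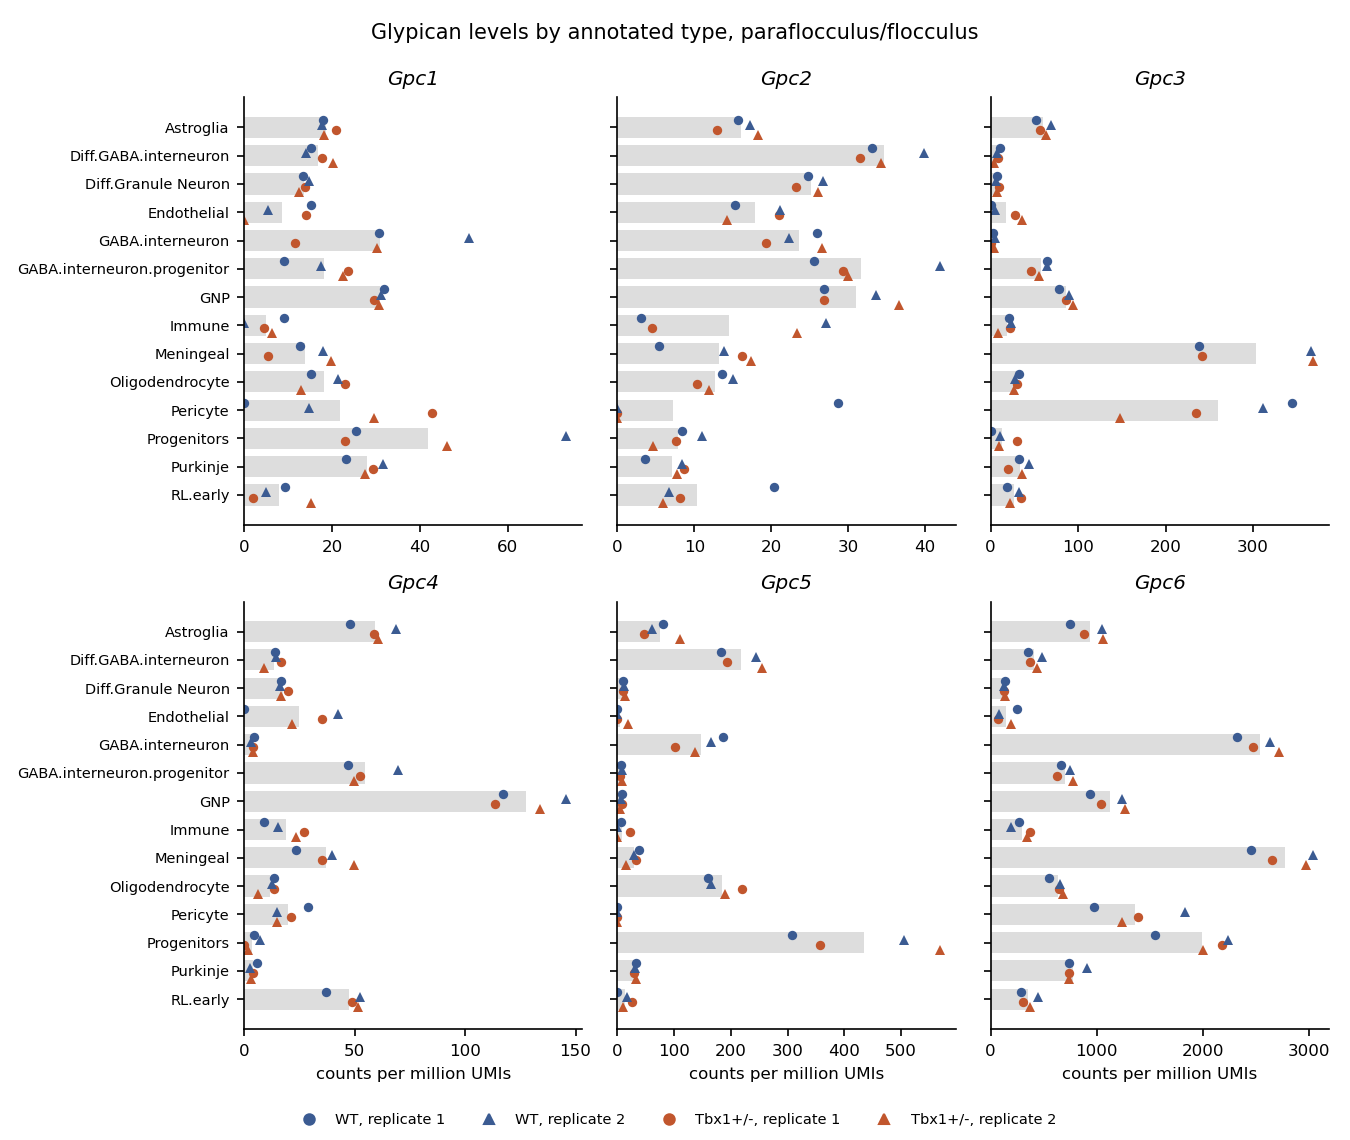
CPM of each glypican in 14 annotated PF/F types; grey bars are means of 4 libraries and points are libraries (colour: genotype, shape: replicate). Meninges lead for Gpc3 and Gpc6, GNPs for Gpc4 and the type called Progenitors for Gpc5, a lead that was lost without the 8% of nuclei with the most UMIs.

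The granule lineage, in which GNPs leave the cell cycle to become granule neurons, had an order for 5 members. Within each of the 4 libraries GNPs exceeded differentiated granule neurons 9.31 to 14.5 times for Gpc3, 5.79 to 8.90 times for Gpc4, 6.78 to 9.61 times for Gpc6, 2.11 to 2.43 times for Gpc1 and 1.08 to 1.41 times for Gpc2. Mean levels in differentiated granule neurons were below those of immune nuclei for Gpc3 (7.36 against 18.8 CPM), Gpc4 (17.4 against 18.7 CPM) and Gpc6 (133 against 291 CPM). Gpc2 in immune nuclei was at 3.02, 27.1, 4.48 and 23.3 CPM, against 24.8, 26.8, 23.3 and 26.1 CPM in differentiated granule neurons. With free RNA left in, only the direction is read for Gpc2, Gpc3, Gpc4 and Gpc6, and not the size of the fold. Gpc5 was 1.18 to 2.67 times higher in the differentiated neurons of each library, but both levels (6.70 ± 1.56 and 10.9 CPM) were close to those of immune nuclei (7.11 ± 10.6 CPM) in counts with free RNA left in, so no order is read from it.

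Differentiated GABA interneurons, so named by the annotation but rich in Pax2, had the same order against GABA interneuron progenitors for 3 genes. The progenitors had more in 4 of 4 libraries: Gpc3 by 5.26 to 14.1 times, Gpc4 by at least 3.11 times and Gpc6 by 1.54 to 1.91 times. Mean Gpc3 and Gpc4 in the differentiated type (7.70 and 13.5 CPM) were below those of immune nuclei (18.8 and 18.7 CPM). Only the direction is therefore read for Gpc3 and Gpc4. Gpc5 went the other way, at 182 to 256 CPM in the differentiated cells against 4.12 to 7.91 CPM in the progenitors, which held 7 to 13 UMIs of it per library. Gpc2 was higher in progenitors in 1 of 4 libraries and Gpc1 in 3 of 4, so neither had an order here. The separate GABA.interneuron type, low in Pax2, had the opposite order for Gpc6, at 2327 to 2723 CPM against 626 to 780.0 CPM in the progenitors. It was above the progenitors for Gpc5 as well (147 ± 36.6 against 6.48 ± 1.70 CPM) and below them for Gpc3 and Gpc4, of which it held 0 to 6 and 1 to 6 UMIs per library.

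**Figure D4:**
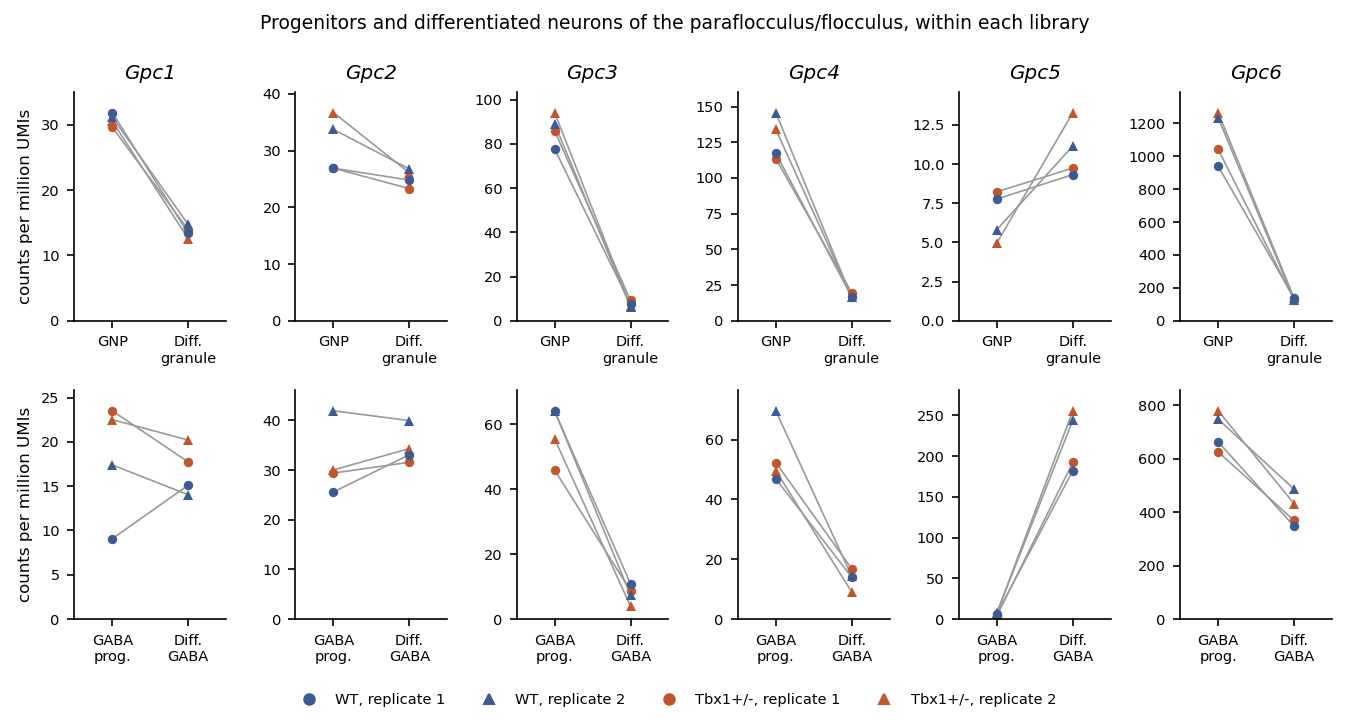
CPM of each glypican in types annotated as progenitors (left points) and as differentiated neurons (right points), with a line for each of the 4 PF/F libraries. The granule lineage is at the top and the GABA interneuron lineage, whose differentiated type is rich in Pax2, at the bottom. Gpc3, Gpc4 and Gpc6 are lower in differentiated granule neurons and differentiated GABA interneurons than in their progenitors in every library. Gpc5, at 4.12 to 8.24 CPM in the progenitors, is higher in differentiated GABA interneurons. Its levels in the granule lineage are close to those of immune nuclei, so no order is read there. The separate GABA.interneuron type is not drawn.

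Across the 31 types of both tissues, the members most alike were Gpc3 and Gpc4 (Pearson's r of log2(CPM + 1) = 0.725), Gpc1 and Gpc6 (0.708) and Gpc3 and Gpc6 (0.650), and the least alike were Gpc2 and Gpc3 (−0.542). The chromosome 14 pair Gpc5 and Gpc6 had r = 0.443, which was 0.299 within bone and 0.366 within cerebellum. Types share libraries and depth, so these values are descriptions.

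Among 12216 other genes, the pattern most like Gpc6 was that of Kirrel (r = 0.820, an immunoglobulin-family adhesion gene), followed by Gpx7 (0.807) and Gpr153 (0.803). Gpc3 was matched most closely by Phldb2 (0.881), Ogn (0.880, a small leucine-rich proteoglycan) and Prrx2 (0.880, a mesenchymal homeobox gene). For Gpc4 the closest were Cdc73 (0.918), Ptpn21 (0.900) and Gli2 (0.899, a transcription factor of the Hedgehog pathway). Gpc5 was closest to Cntn4 (0.845, a neuronal contactin), Vwc2 (0.757) and Myrip (0.744), Gpc1 to Entpd3 (0.866), Slc25a51 (0.861) and Pcolce2 (0.853, an enhancer of procollagen processing), and Gpc2 to Tia1 (0.845), Mtf2 (0.829) and Ncoa5 (0.816). Computed from 1 library of each tissue at a time, several of these were much weaker. The lowest values were 0.339 for Gpx7, 0.379 for Ncoa5, 0.462 for Tia1, 0.498 for Mtf2 and 0.517 for Pcolce2, whereas Phldb2, Ogn and Prrx2 stayed at 0.771 or above and Kirrel and Cntn4 at 0.741 or above.

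The partners of glypicans in the same types were compared side by side. Lrrtm4, a synaptic ligand of glypicans, was at 5030 ± 698 CPM in the GABA.interneuron type, which had the second most Gpc6 of the cerebellum. The same type had little Gpc4 (3.94 ± 0.580 CPM) and little Gpc3 (2.99 ± 2.12 CPM). In bone Lrrtm4 was highest in CP4 (1522 ± 121 CPM), as Gpc5 was, and Sulf1 was also highest there (460 ± 38.1 CPM). Notum was highest in CP6 among bone types, at 122 ± 21.7 CPM against 2.64 to 12.4 CPM in the others.

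Loss of 1 Tbx1 allele left no difference in any glypican that passed the test. Over all annotated nuclei 0 of 6 members were called in PTB and 0 of 6 in PF/F by edgeR, and none had an unadjusted p under 0.05. The background was the same: 0.0% of 20250 genes were called in PTB, where 217 had an unadjusted p under 0.05, and 0.0% of 20756 in PF/F, where 99 did. DESeq2 also called 0 genes in each tissue, with 115 and 29 under 0.05. With 2 libraries per genotype the tests could see only changes well beyond the spread between pools, so the intervals are given with the values. These fits had no replicate term, so that spread includes the shift between replicates. With the replicate as a block in edgeR, 1043 genes in PTB and 624 in PF/F had an unadjusted p under 0.05, and 0 glypicans did. The median SE of the glypicans was then 0.099 instead of 0.132 in PTB and 0.080 instead of 0.136 in PF/F. Values over all nuclei also follow the mix of types. The paper reports a lower ratio of chondrocytes to osteoblasts in Tbx1+/- PTB, and its part in these values was not tested.

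In PTB the Tbx1+/- minus WT differences were 0.08 for Gpc6 (log2, with ± 2 SE from −0.15 to 0.30), 0.05 for Gpc4 (−0.13 to 0.23) and −0.01 for Gpc5 (−0.18 to 0.16). The other bone values were −0.10 for Gpc3 (−0.43 to 0.23), −0.19 for Gpc2 (−0.49 to 0.11) and 0.0036 for Gpc1 (−0.54 to 0.54). The libraries of the genotypes overlapped for 4 members. With 2 libraries against 2, exact permutation cannot give a p below 0.333. A lack of overlap is therefore not read as a difference, here or in the types below. Its share over all genes is not given. For Gpc2 the WT libraries (8.55 and 9.79 CPM) were both above the Tbx1+/- ones (7.79 and 8.26 CPM), and for Gpc5 they were above by a hair (83.0 and 83.2 against 82.9 and 82.0 CPM), with adjusted p = 1.00 by edgeR for all 6.

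In PF/F the differences were 0.04 for Gpc1 (−0.18 to 0.27), −0.06 for Gpc2 (−0.33 to 0.22), 0.03 for Gpc3 (−0.19 to 0.26), −0.01 for Gpc4 (−0.28 to 0.27), 0.14 for Gpc5 (−0.39 to 0.66) and 0.08 for Gpc6 (−0.29 to 0.45). Gpc5 had the widest interval because its replicates disagreed, with −0.30 in replicate 1 and 0.43 in replicate 2. A test of whether the genotype difference itself differed between the tissues called 0 of 6 glypicans and 0.0% of 22148 genes (199 had an unadjusted p under 0.05, and by DESeq2 0 were called and 101 did), and the largest difference among the glypicans was 0.15 on the log2 scale.

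By type, no glypican was called either. The 15 bone types gave 85 glypican tests, of which 2 (2.35%) had an unadjusted p under 0.05, beside 1.81% of the 187198 gene tests, of which 0.0% were called. The 14 cerebellar types with at least 20 nuclei in every library gave 67 tests, of which 2 (2.99%) were under 0.05, beside 1.32% of 161523, of which 1 was called (0.000619%). DESeq2 called 0 glypicans in either tissue and found 1 and 0 under 0.05. With the replicate as a block in edgeR, 0 glypicans were called, and 3 bone tests (3.53%, beside 3.95% of gene tests) and 8 cerebellar tests (11.9%, beside 4.38%) were under 0.05. Endothelial cells and pericytes, with as few as 15 and 12 nuclei in a library, were not tested, and 5 bone and 17 cerebellar tests of glypicans were not made because counts were too low.

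The bone type with the smallest p for Gpc5 was CT3, where the WT libraries had 24.4 and 23.6 CPM and the Tbx1+/- libraries 13.5 and 10.9 CPM. The genotypes did not overlap (log2 −0.99 ± 0.34, edgeR unadjusted p = 0.0141, adjusted p = 1.00). These levels rest on 28 and 34 UMIs in WT and on 14 and 12 in Tbx1+/-, with free RNA left in. Osteoclasts, singled out after their values were seen, had 27.2 and 34.5 CPM of Gpc5 in WT and 8.46 and 19.5 CPM in Tbx1+/-, again without overlap (−1.13 ± 0.38, edgeR unadjusted p = 0.0208, adjusted p = 1.00). The osteoclast levels rest on 65 and 89 UMIs in WT and on 23 and 53 in Tbx1+/-, with free RNA left in. Without the WT replicate 1 the osteoclast difference was −1.30. That fit leaves 1 WT library and assumes that it varies like the Tbx1+/- ones. The difference was −0.67 without the 8% of nuclei with the most UMIs and −0.66 without the Tbx1+/- replicate 1. Over all alternatives it lay between −1.89 and −0.66.

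For the other members, the type with the smallest p in bone was for Gpc2 the osteoblasts, at 6.20 and 6.27 CPM in WT and 4.82 and 3.65 CPM in Tbx1+/- (−0.56 ± 0.27). The others were Gpc4 in CP2 (−0.20 ± 0.14), Gpc1 in osteoclasts (0.51 ± 0.37), Gpc6 in CP2 (0.16 ± 0.15) and Gpc3 in matured osteoblasts/osteocytes (−0.29 ± 0.30), all 5 with adjusted p = 1.00 by edgeR. Over all bone types the median log2 differences were between −0.13 for Gpc2 and 0.15 for Gpc1, smaller than the median SE of each gene. Leaving out 1 library at a time moved Gpc1 in osteoclasts from 0.02 to 1.01, Gpc4 in CP2 from −0.31 to −0.07 and Gpc6 in CP2 from 0.01 to 0.31 on the log2 scale.

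In cerebellum the smallest p belonged to Gpc1 in GABA interneuron progenitors, with 9.06 and 17.4 CPM in WT and 23.5 and 22.5 CPM in Tbx1+/- (0.86 ± 0.34, edgeR unadjusted p = 0.0311, adjusted p = 1.00). Gpc6 in immune cells was at 262 and 190 CPM in WT and 372 and 341 CPM in Tbx1+/- (0.64 ± 0.28, edgeR unadjusted p = 0.0446, adjusted p = 1.00). In both types the genotypes did not overlap. The immune values rest on 87 and 49 UMIs in WT and on 83 and 161 in Tbx1+/-. Free RNA was not removed, so they are not read as expression by immune cells. Gpc5 had its smallest p in the GABA.interneuron type (−0.48 ± 0.26) and Gpc3 in GABA interneuron progenitors (−0.33 ± 0.20), both with adjusted p = 1.00 by edgeR. Leaving out 1 library at a time gave 0.39 to 1.36 for Gpc1, 0.41 to 0.96 for Gpc6, −0.81 to −0.30 for Gpc5 and −0.48 to −0.20 for Gpc3 in these types.

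**Figure D5:**
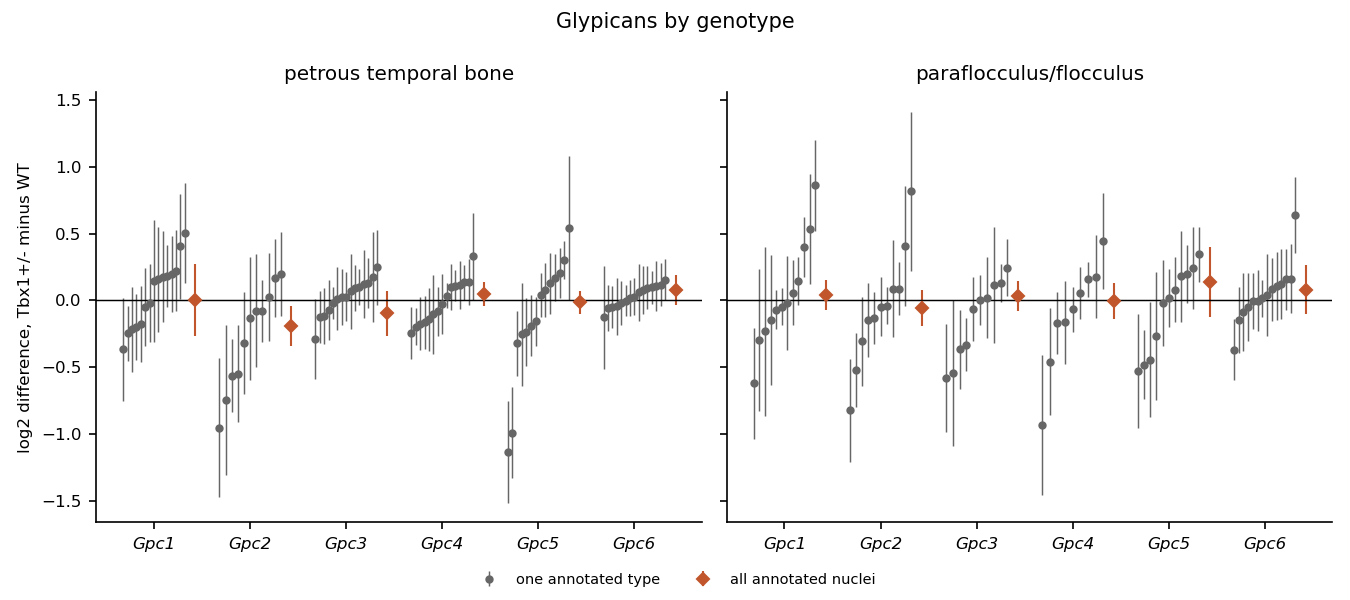
Tbx1+/- minus WT log2 difference of each glypican, with 1 SE, in each annotated type that was tested (grey) and in all annotated nuclei (orange), for PTB (left) and PF/F (right). The orange values lie between −0.19 and 0.14 and the grey ones spread to both sides of 0.

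The replicates differed more than the genotypes for some members. Gpc1 was higher in replicate 1 than in replicate 2 in both genotypes in 14 of the 15 bone types, and over all bone nuclei the ratio was 1.65 in WT and 1.30 in Tbx1+/-. Gpc3 had ratios of 1.25 and 1.24 over all bone nuclei, with 9 of 15 types higher in replicate 1 in both genotypes. The mix of types differed as well. CT1, second for Gpc3 in bone, held 1315 and 332 nuclei in WT replicates 1 and 2, of 9977 and 5981 in all. In Tbx1+/- it held 878 and 118, of 8704 and 6414. The part of this mix in the ratios was not tested. In the cerebellum Gpc6 was higher in replicate 2 in both genotypes in 9 of 16 types, with replicate 1 to replicate 2 ratios of 0.824 and 0.852.

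Sex-linked transcripts differed between replicates and, in a repeated direction within replicates, between genotypes. By edgeR 0 of 5 sex-linked genes were called for genotype in either tissue, and 0 had an unadjusted p under 0.05. Xist was at 520 and 668 CPM in the PTB libraries of replicate 1 (WT, then Tbx1+/-) and at 954 and 1227 CPM in those of replicate 2. Its PF/F levels were 550 and 698 CPM in replicate 1 and 1289 and 1529 CPM in replicate 2, so within each replicate of each tissue the Tbx1+/- library was the higher one. The sum of 4 Y-linked genes was lower in Tbx1+/- in the same 4 pairs, at 345 against 392 CPM and 237 against 311 CPM in PTB and at 347 against 383 CPM and 238 against 249 CPM in PF/F (replicate 1, then replicate 2). The PTB and PF/F pairs of a replicate may share animals, so the 4 pairs may not be independent. The part of the sex-linked transcripts in the genotype differences of the X-linked Gpc3 and Gpc4, or in the replicate differences of Gpc1, Gpc3 and Gpc6, was not tested.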

How the data were processed

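Raw UMI counts per gene and barcode were deposited by the authors for 8 libraries, made with Cell Ranger 7.0.0 in intron mode on mm10, with a table per tissue that gives a type to each nucleus it lists. The study removed nuclei with few genes or outlying depth and corrected free RNA for its own analysis, but the deposited counts are whole numbers without that correction, and no doublet removal is described. Here counts were summed per library and type. CPM, means and SDs over the 4 libraries of a tissue were computed in Python 3.11.15. Tests used edgeR 4.0.16 in R 4.3.3 (TMM factors, filterByExpr, quasi-likelihood), with Benjamini-Hochberg adjustment over all genes of a fit, and a call needed an adjusted p under 0.05 and a change above 1.5-fold. The tissue fit had genotype as a covariate and did not pair the PTB and PF/F libraries of the same genotype and replicate. Types with under 20 nuclei in a library were not fitted. A step between neighbouring types was called larger than its spread where the mean paired difference over libraries exceeded its SD and was positive in all 4. Exact permutation over 2 libraries against 2 cannot give a p below 0.333, so none is given. Alternatives were size factors of DESeq2's kind, no filter on low counts, DESeq2 1.42.0, a replicate block, leaving out the 8% of nuclei with the most UMIs or each library in turn, and for levels only nuclei with at least 2000 detected genes. Gene positions are those of GENCODE on GRCm38, in which 32158 of 32285 genes (99.6%) were matched, and promoters were found for 4 of 6 members. The members, lists and tests were chosen with earlier results of these data known. All 6 members are named, with the type of smallest unadjusted genotype p for each member and tissue (2 annotated PF/F types are not reported here, which leaves out that type for Gpc2 and Gpc4 in PF/F), the 3 genes of most similar pattern among those with at least 20 CPM in a type, and the 3 highest and 3 lowest of each list in the tissue comparison. Same-numbered libraries deviated together, with correlations of 0.478 over genes in PTB and 0.550 in PF/F, and the study describes them as separate experiments. The methods were tested on simulated data.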

Additional observations from a re-analysis of the deposited data

How the results depend on the processing

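Of 398 alternative values for the main comparisons, 364 kept their direction and their side of the threshold. The tissue differences kept theirs for all 6 members under all 13 alternatives, except Gpc5, which was at log2 0.54 (adjusted p = 0.00263, edgeR) and under 1.5-fold without the Tbx1+/- PF/F replicate 1; without 1 library at a time it ran from 0.54 to 0.86, so 5 to 6 members were called, and without the 8% of nuclei with the most UMIs it was 1.16. The genotype differences were near 0 and changed sign as libraries were left out, from −0.31 to 0.42 for Gpc1, −0.26 to 0.086 for Gpc3, −0.019 to 0.00021 for Gpc5 and −0.030 to 0.20 for Gpc6 in PTB, and from −0.030 to 0.12 for Gpc1, −0.17 to 0.061 for Gpc2, −0.038 to 0.11 for Gpc3, −0.13 to 0.10 for Gpc4, −0.30 to 0.46 for Gpc5 and −0.048 to 0.22 for Gpc6 in PF/F. The difference between tissues in the genotype effect ran likewise from −0.35 to 0.40 for Gpc1, −0.28 to 0.022 for Gpc2, −0.28 to 0.068 for Gpc3, −0.074 to 0.21 for Gpc4, −0.50 to 0.33 for Gpc5 and −0.17 to 0.17 for Gpc6. Gpc3 in matured osteoblasts/osteocytes ran from −0.62 to 0.24, and the number of glypicans called by type in PTB was 0 to 1, the 1 being Gpc5 in osteoclasts without the WT replicate 1.

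With the replicate as a block, 0 glypicans were called for genotype over all nuclei, by type or in the test between tissues, and 6 of 6 remained called for tissue. The block gave Gpc5 in osteoclasts a log2 difference of −1.17 and an adjusted p of 0.187 (edgeR), and raised the calls over all genes from 0 to 78 in the bone types and from 1 to 60 in the cerebellar types. Levels moved by more than 1 SD for Gpc1 in Progenitors (74.6 CPM), Gpc2 in differentiated GABA interneurons (39.7 CPM) and Gpc5 in Progenitors (199 CPM) without the 8% of nuclei with the most UMIs, and for Gpc2 in differentiated GABA interneurons (28.3 CPM) with at least 2000 detected genes. The cause was not tested.

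The limits are set by 2 pools per genotype and by UMI counts that are few in small types. Types were defined on the same nuclei, levels include intronic reads and favour long genes, and free RNA was not removed. Tissue and the set of annotated types cannot be told apart.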

Other observations

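Barcodes without an annotation held glypicans as well. Those with at least 1000 detected genes were assigned to the marker list with the most UMIs (at least 3), and levels are means over the 4 libraries of a tissue, with no test. In PTB, 224 barcodes with muscle markers had Gpc4 at 261 ± 78.4 CPM (176 to 362 CPM), above every annotated bone type. In the same tissue, 94 barcodes with pericyte markers had Gpc6 at 2987 ± 933 CPM, while 789 with endothelial markers had 350 ± 63.7 CPM, below every annotated bone type.

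Gpc5 was highest among unannotated PTB barcodes in the 232 with astroglial markers, at 728 ± 158 CPM (590 to 955 CPM), which was above every annotated type of either tissue, and Gpc6 was at 2121 ± 460 CPM there. In PF/F, 2082 unannotated barcodes with general neuronal markers had Gpc5 at 192 ± 43.1 CPM and Gpc6 at 1147 ± 256 CPM. Gpc3 in the 823 PTB barcodes with Schwann cell and other glial markers was at 176 ± 44.7 CPM.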
